A study of Mus musculus with 27 samples.

Results

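The 10 genes described here encode enzymes that make, salvage or remove deoxynucleoside triphosphates (dNTPs), the building blocks of DNA. They are Rrm1, Rrm2, Rrm2b, Tyms, Dut, Dctd, Dctpp1, Tk1, Dck and Samhd1, taken by symbol from the 54532 genes of the count and FPKM tables (fragments per kilobase of gene, scaled to the library). In the first experiment, B cells taken from the spleen of wild-type C57BL6 mice by negative selection were kept in culture for 3 h, in 5 groups of 4 libraries. The cells were left unstimulated, given LPS (a bacterial lipopolysaccharide), given IL4+anti-CD40 (the cytokine IL-4 and an antibody that stand in for T cell help), and either stimulus with 1 μM disulfiram (DSF), a drug used against alcohol dependence. The groups without a drug received the DMSO vehicle. In the second experiment, each of these 5 conditions and either stimulus with 1 μM ibrutinib, an inhibitor of Bruton's tyrosine kinase, had 1 library, so no test was possible there. The total count of a library ranged from 17804851 to 23632992 (first experiment) and from 16049295 to 24619776 (second experiment). The labels do not say whether the replicates came from separate mice or cultures, so p-values measure only the spread between these libraries. Since whole cultures were sequenced, a smaller share of cells expressing a gene and less RNA per cell cannot be told apart.

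Ribonucleotide reductase turns ribonucleotides into deoxyribonucleotides and is the step that limits dNTP supply. Rrm1 encodes its large subunit, Rrm2 the small subunit used in S phase, and Rrm2b a small subunit that p53 induces and that serves cells outside S phase. On the branch to thymidine nucleotides, Dctd (dCMP deaminase) and Dut (dUTPase) both yield dUMP, and Tyms (thymidylate synthase) methylates it. Dctpp1 hydrolyses dCTP and its modified forms, Tk1 and Dck phosphorylate salvaged deoxynucleosides, and Samhd1 breaks down dNTPs and is inducible by interferon in many cell types. Resting splenic B cells are outside the cell cycle, and mitogens bring them to S phase only well after the time sampled here.

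The identity of the cells and the likeness of the libraries were checked first. All 6 B cell markers, among them Ms4a1, Cd79a and Pax5, were present, with summed levels of 2885 to 8127 CPM (counts scaled to library size) per library. The 7 T cell markers summed to between 21.1 and 44.4 CPM and the 5 NK markers to between 1.18 and 4.51 CPM, with Ncr1 at 0 in the LPS group. The 5 myeloid markers (Lyz2, Csf1r, Adgre1, Cd68, Itgam) summed to between 509 and 639 CPM in unstimulated B cells, and to between 119 and 276 CPM in the other groups. The 4 unstimulated libraries fell into pairs, also in the B cell markers (5389 and 5293 CPM in replicates 1 and 2, 8127 and 8024 CPM in replicates 3 and 4). Of 15575 genes, 2422 to 2505 were at least 2-fold apart between a library of replicates 1 and 2 and a library of replicates 3 and 4, against 452 and 559 within the pairs. For LPS and for both DSF groups this number was between 513 and 818 for any pair of replicates. Neutrophil markers summed to 59.4 and 61.3 CPM in unstimulated replicates 1 and 2 and to 18.5 and 22.2 CPM in replicates 3 and 4, and erythroid markers to 3.09 and 2.35 against 13.7 and 15.5 CPM. A milder split by replicate number was present with IL4+anti-CD40, where 930 to 1379 genes were 2-fold apart across replicates 1 or 2 and 3 or 4, and 633 and 704 within. Neutrophil and erythroid markers did not separate these pairs (11.4 to 13.8 and 1.28 to 1.61 CPM). B cell markers did, with replicates 1 and 2 the higher pair (4404 and 4462 against 4025 and 3982 CPM), unlike in unstimulated B cells. Values without a pair are given below where leaving it out changes a call or moves a value much, and the part of the marker genes in them was not tested.

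The promoters of Dctd, Dctpp1 and Rrm1 are shown because these genes had the 3 largest falls with DSF under LPS and also fell with DSF under IL4+anti-CD40. Each sequence is the RefSeq window on GRCm38.p6 from 250 bases before to 50 bases after a start, 5′ to 3′ on the gene's strand. Capitals mark CCAAT on either strand (ATTGG where it lies on the other strand), the core of a motif bound by the factor NF-Y.
Dctd, 1 of its 3 starts, chr8:48109708-48110007, plus strand: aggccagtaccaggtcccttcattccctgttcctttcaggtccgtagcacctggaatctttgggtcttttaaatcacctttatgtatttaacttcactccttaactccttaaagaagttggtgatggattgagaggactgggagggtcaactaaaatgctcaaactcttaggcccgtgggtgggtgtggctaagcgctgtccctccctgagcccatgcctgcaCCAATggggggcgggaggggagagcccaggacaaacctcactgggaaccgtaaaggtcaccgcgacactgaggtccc
Dctpp1, chr7:127260618-127260917, minus strand: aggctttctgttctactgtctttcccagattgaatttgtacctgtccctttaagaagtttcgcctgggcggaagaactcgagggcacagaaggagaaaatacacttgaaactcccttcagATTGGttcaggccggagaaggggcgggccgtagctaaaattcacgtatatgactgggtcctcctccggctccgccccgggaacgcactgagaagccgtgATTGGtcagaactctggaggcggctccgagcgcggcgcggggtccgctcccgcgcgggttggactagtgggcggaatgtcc
Rrm1, chr7:102441445-102441744, plus strand: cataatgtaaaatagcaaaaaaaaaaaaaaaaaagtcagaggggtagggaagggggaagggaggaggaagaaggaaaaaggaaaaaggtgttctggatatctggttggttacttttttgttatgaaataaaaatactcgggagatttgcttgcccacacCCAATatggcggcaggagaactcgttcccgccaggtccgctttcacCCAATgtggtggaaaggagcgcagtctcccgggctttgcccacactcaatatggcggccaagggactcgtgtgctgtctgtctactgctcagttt

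In these windows CCAAT stood 27 bases before the Dctd start, 130 and 31 bases before the Dctpp1 start, and 91 and 45 bases before the Rrm1 start. Of the 9 genes with an entry (Rrm2b has none), 4 held CCAAT in a window, namely these 3 and Rrm2, at 50 bases before its start. Another Dctd window (chr8:48098842-48099141) held none. CCAAT stood in 37.4% of all 32851 promoter windows of this length, a share of windows and not of genes. Of the other letters searched on both strands, the E2F forms TTTCCCGC, TTTGGCGC, TTTCGCGC and TTTGCCGC (in 2.26% of all windows) were in none of the 9, and CACGTG (7.15%) was in Tyms alone. The motifs were not read as sites.

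The levels of the 10 genes spanned a wide range. In FPKM, which allows genes to be compared per length, the highest group mean was 130 for Samhd1 with LPS, and the lowest was 0.488 for Tyms with LPS and DSF. Samhd1 also differed most between groups, by 8.16-fold from IL4+anti-CD40 with DSF to LPS, followed by Dck (6.77-fold), Tk1 (6.44-fold) and Dctd (5.38-fold). Rrm2b (2.07-fold) and Tyms (2.10-fold) differed least. The lowest mean lay in a DSF group for 7 of the 10 genes. Unstimulated B cells had the highest mean for Rrm1, Rrm2, Rrm2b, Dut and Dck, IL4+anti-CD40 for Tyms, Dctd, Dctpp1 and Tk1, and LPS for Samhd1.

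**Figure D1:**
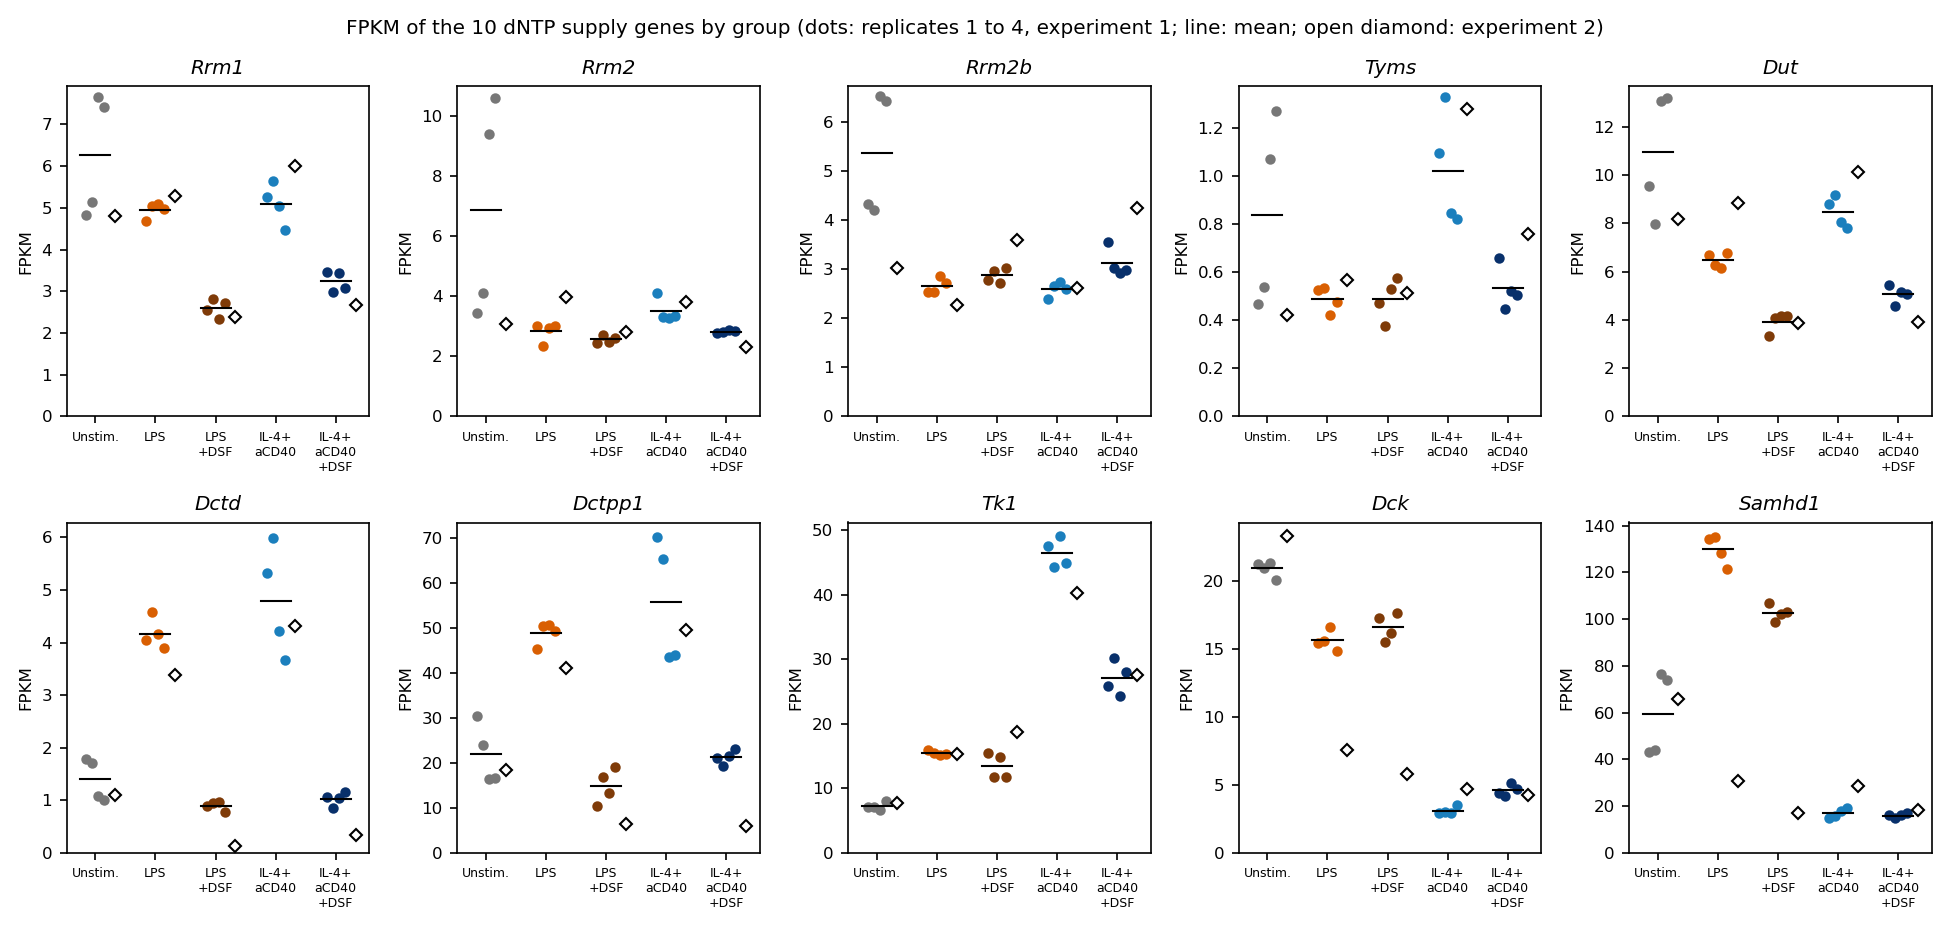
FPKM (linear axis from 0) of each gene in the 5 groups: dots are the 4 replicates of the first experiment, lines their means, and open diamonds the single libraries of the second experiment (aCD40, anti-CD40). Dctd and Dctpp1 are high with either stimulus and low with DSF, and unstimulated replicates 3 and 4 stand above replicates 1 and 2 for Rrm1, Rrm2, Rrm2b, Tyms, Dut and Samhd1.

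With a stimulus alone, about as many of these genes rose as fell. With LPS, 4 rose (Dctd, Dctpp1, Samhd1, Tk1) and 4 fell (Rrm2, Rrm2b, Dut, Dck) against unstimulated B cells by edgeR's quasi-likelihood test at an adjusted p under 0.05, beside 62.9% of the 14477 genes tested called in either direction (29.6% higher, 33.3% lower). With IL4+anti-CD40, 3 rose (Tk1, Dctd, Dctpp1) and 4 fell (Dck, Samhd1, Rrm2b, Rrm2), beside 62.5% of all genes (30.4% higher, 32.1% lower). The fall of Rrm2 with IL4+anti-CD40 was called in only 9 of 22 alternative fits. Between the stimuli, 2 were higher with LPS (Samhd1, Dck) and 3 lower (Tk1, Tyms, Dut), beside 39.7% of all genes (22.3% higher, 17.3% lower). The median log2 fold change of the 10 genes was -0.37 with LPS and -0.31 with IL4+anti-CD40, and that of all genes tested -0.05 and -0.04. Without unstimulated replicates 1 and 2, LPS raised 4 and lowered 6 of the genes, and IL4+anti-CD40 raised 3 and lowered 6. Without replicates 3 and 4, LPS raised 4 and lowered 4, and IL4+anti-CD40 raised 4 and lowered 3. Without either pair of IL4+anti-CD40 libraries, 3 rose and 3 fell with that stimulus. Between the stimuli, leaving out replicates 1 and 2 kept the count at 2 higher and 3 lower with LPS, and leaving out replicates 3 and 4 gave 2 and 6.

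**Figure D2:**
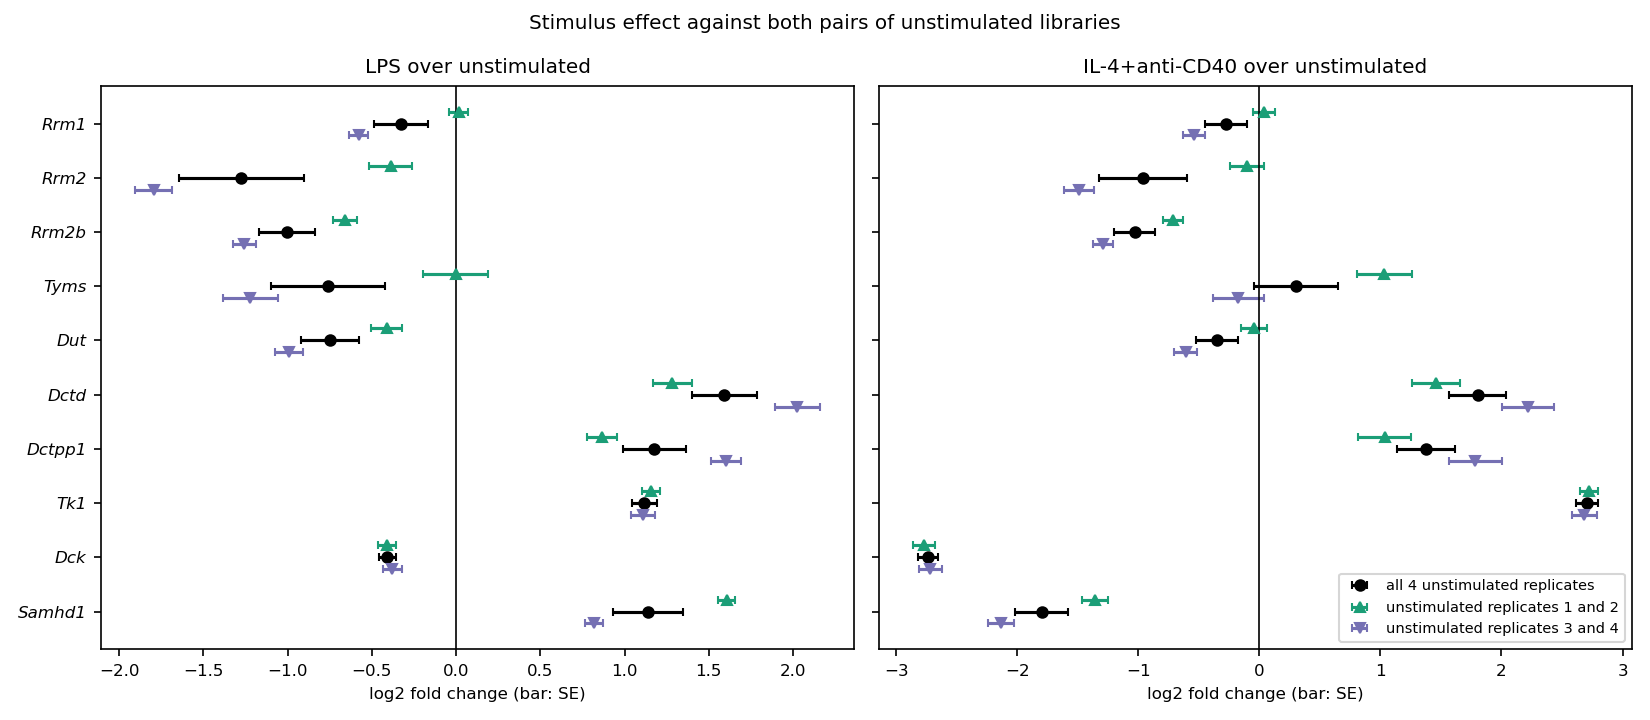
Log2 fold changes (edgeR, bars are SE) of each gene with LPS (left) and with IL4+anti-CD40 (right) over unstimulated B cells, against all 4 unstimulated libraries, replicates 1 and 2 alone, or replicates 3 and 4 alone. Tk1 and Dck hardly move between the pairs, and Rrm1, Rrm2 and Dut lie closer to 0 against replicates 1 and 2 than against replicates 3 and 4.

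Adding DSF lowered more of these genes than it raised. With LPS, 6 fell (Dctd, Dctpp1, Rrm1, Dut, Samhd1, Tk1) and 0 rose, beside 71.1% of 14154 genes called in either direction (35.1% higher, 36.0% lower). With IL4+anti-CD40, 7 fell (Dctd, Dctpp1, Tyms, Tk1, Dut, Rrm1, Rrm2) and 2 rose (Dck, Rrm2b), beside 61.8% in either direction (30.1% higher, 31.6% lower). Set against unstimulated B cells, LPS with DSF had 2 genes higher and 6 lower (71.6% of all genes, 34.3% higher and 37.3% lower), and IL4+anti-CD40 with DSF had 1 higher and 6 lower (68.7%, 33.4% and 35.3%). Without unstimulated replicates 1 and 2 these were 2 and 6 with LPS and 2 and 7 with IL4+anti-CD40, and without replicates 3 and 4 they were 2 and 7 and 1 and 8. Without IL4+anti-CD40 replicates 1 and 2, DSF raised 1 gene (Dck) and lowered 7 under that stimulus, with Samhd1 called in place of Rrm2, and without replicates 3 and 4 it raised 2 and lowered 7. The effect of DSF differed between the stimuli for 3 genes, Dck with a higher value under IL4+anti-CD40 and Tk1 and Tyms with a lower one, beside 14.9% of all genes (6.96% higher, 7.92% lower). Which genes passed that test depends on the IL4+anti-CD40 pairs: without replicates 1 and 2 Dctpp1 (0.63, edgeR adjusted p = 0.0124) and Rrm1 passed and Tyms did not, and without replicates 3 and 4 Samhd1 passed too (0.39, adjusted p = 0.00077). The medians for DSF over the stimulus alone were -0.26 and -0.72 for the 10 genes and 0.00 and -0.02 for all genes tested. Under LPS, DESeq2 called 0 of the 10 higher, and 1 of them, Dck, was higher at an unadjusted p under 0.05 in edgeR. Dck was called higher there with DESeq2 size factors in edgeR (0.12, adjusted p = 0.0426), with a minimum of 10 counts in every library (0.13, adjusted p = 0.0289) and without LPS with DSF replicate 2 (0.14, adjusted p = 0.0278), and so was Rrm2b with the minimum of 10 counts (0.15, adjusted p = 0.0494). With total counts as the scaling, the genes called with LPS were split into 3473 higher and 6680 lower, against 4966 and 5096 with TMM, and 7 of the 10 genes fell. B cell markers moved too: their sum was 4511 to 4626 CPM with LPS and 2885 to 3103 CPM with LPS and DSF, with 6 of the 6 lower, and 3982 to 4462 CPM with IL4+anti-CD40 and 3093 to 3288 CPM with DSF, with 4 lower and 1 higher. The 4 plasma cell markers summed to between 174 and 195 CPM with LPS and 225 and 259 CPM with LPS and DSF, and to between 151 and 168 CPM and 208 and 228 CPM with IL4+anti-CD40 without and with DSF. The 5 myeloid markers summed to between 168 and 198 CPM with IL4+anti-CD40 and 199 and 276 CPM with DSF, and to between 119 and 134 CPM and 128 and 134 CPM with LPS without and with DSF. The part of these markers in the results was not tested. The share of the 10 that changed is therefore near the background with LPS, and the direction was mostly downward under both stimuli. The DSF comparisons use the same stimulated libraries as the comparisons with unstimulated B cells, so opposite signs in both kinds of comparison are not independent.

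**Figure D3:**
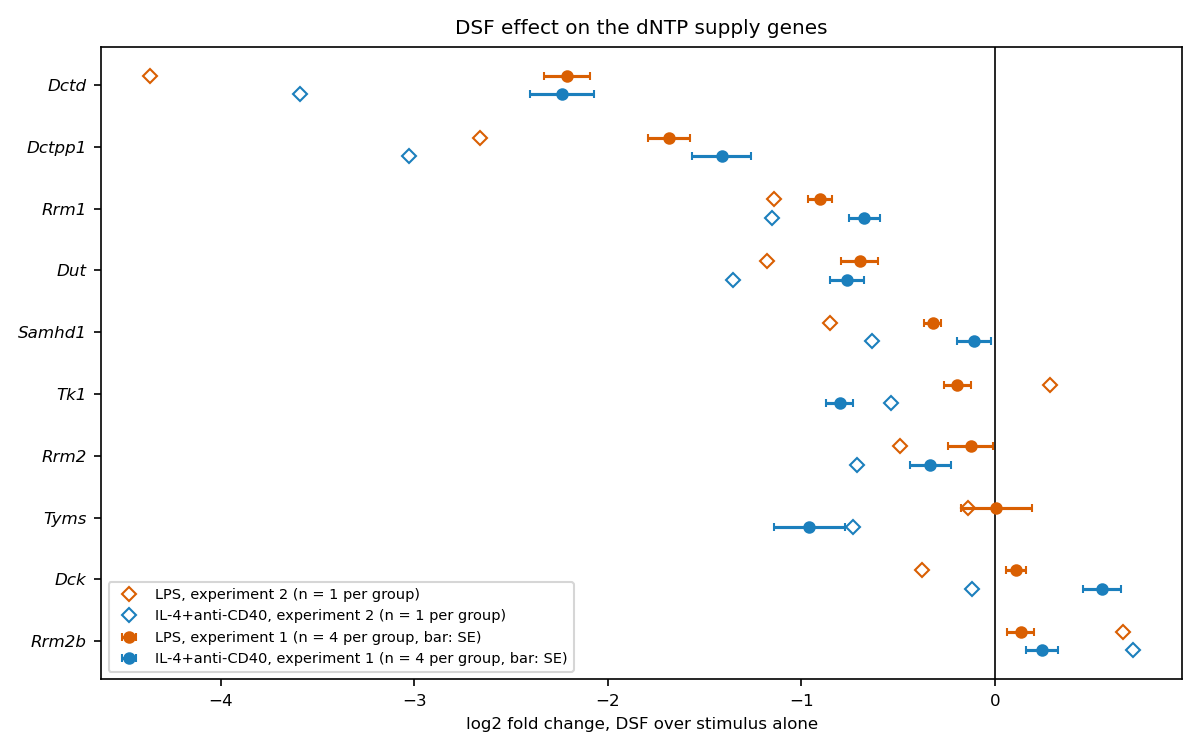
Log2 fold changes with DSF over the stimulus alone, for LPS (orange) and IL4+anti-CD40 (blue): filled points with SE bars are the first experiment (edgeR, 4 libraries per group) and open diamonds the second (1 library per group). Dctd and Dctpp1 lie farthest below 0 in both experiments, Rrm1 and Dut lie below 0 in all 4 comparisons, and Rrm2b lies above 0 in all 4 comparisons (with total counts as the scaling it was -0.07 under LPS).

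Rrm1, the large subunit of ribonucleotide reductase (chromosome 7 of GRCm38, 102441695 to 102469771), had 4.68, 5.04, 5.08 and 4.98 FPKM with LPS and 2.54, 2.82, 2.34 and 2.73 FPKM with LPS and DSF. All DSF libraries lay below all LPS libraries. Rrm1 fell by 0.90 on the log2 scale (SE 0.0604, edgeR adjusted p = 1.17e-12). With IL4+anti-CD40 it stood at 5.26, 5.63, 5.05 and 4.46 FPKM, and with DSF at 3.46, 2.99, 3.43 and 3.09 FPKM, again without overlap. This was a fall of 0.67 on the log2 scale (SE 0.0786, edgeR adjusted p = 2.24e-05), and the falls under the 2 stimuli did not pass the test of their difference (0.23, SE 0.103, adjusted p = 0.138), although they did without IL4+anti-CD40 replicates 1 and 2 (0.33, adjusted p = 0.0249). Unstimulated B cells had 4.82 and 5.14 FPKM in replicates 1 and 2 and 7.66 and 7.41 FPKM in replicates 3 and 4. The change with LPS alone was -0.33 (SE 0.160, edgeR adjusted p = 0.102), and it was 0.02 against the first pair and -0.58 against the second. Of the 50-base stretches of Rrm1 transcripts, 2.41% were shared with transcripts of other genes.

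Rrm2, the S-phase small subunit (chromosome 12, 24708241 to 24714146), was the member whose unstimulated libraries differed most, at 3.43, 4.11, 9.40 and 10.6 FPKM. LPS gave 3.02, 2.34, 2.96 and 3.02 FPKM and IL4+anti-CD40 4.12, 3.30, 3.26 and 3.33 FPKM. Against all 4 unstimulated libraries Rrm2 fell under LPS by 1.27 (log2, SE 0.369, edgeR adjusted p = 0.0146) and by 0.96 with IL4+anti-CD40 (SE 0.361, adjusted p = 0.0421). These values depend on the pair: with LPS the change was -1.79 against replicates 3 and 4 and -0.39 against replicates 1 and 2, and with IL4+anti-CD40 it was -1.49 and -0.10, the last no longer called (adjusted p = 0.57). The fall with IL4+anti-CD40 was also not called without IL4+anti-CD40 replicates 1 and 2 (-1.01, edgeR adjusted p = 0.151) or 3 and 4 (-0.85, adjusted p = 0.214). It was called in only 9 of 22 alternative fits. In the second experiment, which had no replicates, the log2 ratio with IL4+anti-CD40 was 0.30 (counting interval 0.01 to 0.60). With LPS and DSF, Rrm2 stood at 2.45, 2.72, 2.46 and 2.61 FPKM, which overlapped LPS alone (-0.12, SE 0.117, edgeR adjusted p = 0.351). With IL4+anti-CD40 and DSF it stood at 2.78, 2.80, 2.88 and 2.83 FPKM, below every library without DSF. This fall of 0.33 (SE 0.107, edgeR adjusted p = 0.0186) was called in 17 of 20 alternative fits. Among the fits that did not call it were those without replicate 1 of IL4+anti-CD40 (-0.25, edgeR adjusted p = 0.0584) and without replicates 1 and 2 together (-0.24, adjusted p = 0.102).

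Rrm2b, the small subunit that p53 induces (chromosome 15, 37923952 to 37961318), was near the level of Rrm2 per length. Unstimulated B cells had 4.32, 4.20, 6.52 and 6.42 FPKM. LPS libraries ranged from 2.52 to 2.86 FPKM and IL4+anti-CD40 libraries from 2.39 to 2.74 FPKM, below all unstimulated libraries. Rrm2b fell by 1.01 with LPS (SE 0.166, edgeR adjusted p = 0.000775) and by 1.03 with IL4+anti-CD40 (SE 0.168, adjusted p = 0.000645), and both changes were called against either unstimulated pair (-0.66 to -1.29). With DSF the libraries ranged from 2.72 to 3.02 FPKM under LPS, overlapping LPS alone (0.13, SE 0.0685, adjusted p = 0.0835), and from 2.92 to 3.54 FPKM under IL4+anti-CD40, above it (0.24, SE 0.0815, edgeR adjusted p = 0.0215). The second value was called in 14 of 20 alternative fits. Among the fits that did not call it were those without replicate 1 of either group (0.20 and 0.18). Others were the fits without IL4+anti-CD40 replicates 1 and 2 together (0.20, edgeR adjusted p = 0.0979) and with total counts as the scaling (0.10, adjusted p = 0.347). The antisense gene Gm49085 shares 734 of the 9134 exonic bases of Rrm2b on the opposite strand, and no source used here names the strand setting of the counting, so reads from the 2 genes cannot be told apart there. Of the 50-base stretches of Rrm2b transcripts, 10.5% were shared with transcripts of other genes, the highest share among the 10 genes.

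Within a library, the Rrm2b share of the small-subunit FPKM, Rrm2b over Rrm2 plus Rrm2b, does not depend on the scaling of the library. It was 45.5, 51.9, 49.1 and 47.3% with LPS and 53.1, 52.2, 52.5 and 53.6% with LPS and DSF, with no overlap. The mean difference was 4.41 percentage points (48.4% ± 2.73 to 52.9% ± 0.608, SD, n = 4, exact permutation test, two-sided, p = 0.0286, adjusted over 8 tests 0.0381). With IL4+anti-CD40 the share was 36.7, 44.5, 45.7 and 43.8%, and with DSF 56.0, 51.9, 50.4 and 51.3%, again with no overlap and a difference of 9.73 points (exact permutation p = 0.0286, adjusted 0.0381). The smallest p that 4 against 4 libraries can give is 0.0286. The unstimulated libraries had shares of 55.7, 50.6, 40.9 and 37.7%, a spread (46.2% ± 8.35, SD, n = 4) wider than the difference to LPS (2.21 points, exact permutation p = 0.629) or to IL4+anti-CD40 (-3.57 points, exact permutation p = 0.486).

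**Figure D4:**
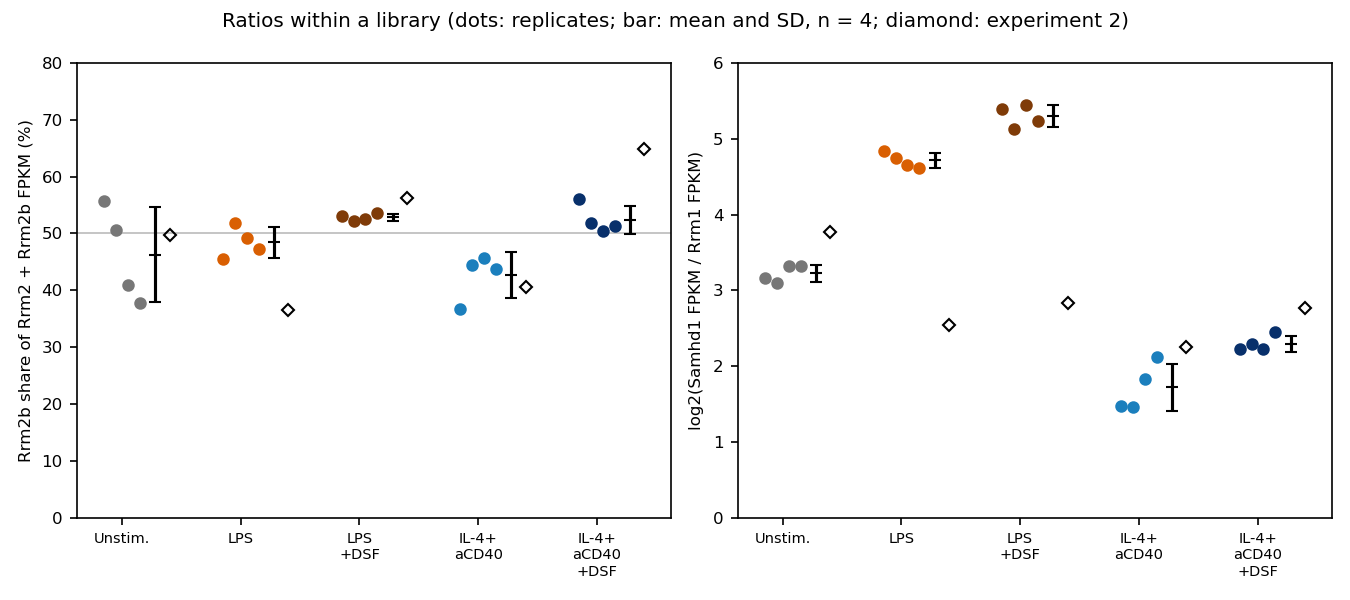
Left, the Rrm2b share of Rrm2 plus Rrm2b FPKM (percent, axis from 0, grey line at 50%). Right, log2 of Samhd1 FPKM over Rrm1 FPKM. Dots are the 4 libraries per group, bars mean and SD, diamonds the second experiment. All DSF libraries of the first experiment lie above the matching libraries without DSF in both panels.

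Dctd and Dctpp1, which act on dCMP and dCTP, had the clearest pattern: high with either stimulus and low with DSF. Dctd (chromosome 8, 48099092 to 48153233) stood at 1.79, 1.70, 1.09 and 1.00 FPKM in unstimulated B cells, 4.04, 4.57, 4.16 and 3.90 with LPS, and 5.31, 5.99, 4.22 and 3.67 with IL4+anti-CD40. Every stimulated library lay above every unstimulated one. Under LPS, Dctd rose by 1.59 (log2, SE 0.191, edgeR adjusted p = 0.00012) and by 1.80 with IL4+anti-CD40 (SE 0.235, adjusted p = 0.000175), and by between 1.28 and 2.22 against the single unstimulated pairs. With DSF it stood at 0.880, 0.949, 0.963 and 0.773 FPKM under LPS, from 48 to 58 counts per library against 243 to 363 without DSF. Under IL4+anti-CD40 and DSF it stood at 1.07, 0.844, 1.04 and 1.16 FPKM. The falls of 2.21 (SE 0.117) and 2.24 (SE 0.167) on the log2 scale (edgeR adjusted p = 1.1e-14 and 1.52e-06) had a difference between the stimuli of -0.02 (SE 0.214, adjusted p = 0.962). Against unstimulated B cells, Dctd with LPS and DSF was 0.64 lower (edgeR adjusted p = 0.0265), a call that was lost without any one of 5 of the 8 libraries and against unstimulated replicates 3 and 4 (-0.24, adjusted p = 0.30). With IL4+anti-CD40 and DSF it was -0.43 (adjusted p = 0.114), and against unstimulated replicates 1 and 2 alone it was called lower (-0.78, adjusted p = 0.000657). None of the 3499 distinct 50-base stretches of its transcripts was found in annotated transcripts of another gene.

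Dctpp1 (chromosome 7, 127256959 to 127260709) stood at 45.4, 50.4, 50.6 and 49.3 FPKM with LPS and at 70.3, 65.3, 43.5 and 44.0 with IL4+anti-CD40, where replicates 1 and 2 were the higher pair. Unstimulated B cells had 30.5, 24.1, 16.4 and 16.5 FPKM, so the order of the pairs was opposite to that of Rrm2 and Samhd1. It rose by 1.18 with LPS (SE 0.186, edgeR adjusted p = 0.000611) and by 1.37 with IL4+anti-CD40 (SE 0.241, adjusted p = 0.000987), and was called against either pair. With DSF it stood at 10.5, 16.8, 13.4 and 19.2 FPKM under LPS and at 21.0, 19.4, 21.5 and 23.0 under IL4+anti-CD40, below all libraries without DSF. The falls were 1.68 (SE 0.109, edgeR adjusted p = 6.54e-13) and 1.41 (SE 0.154, adjusted p = 1.42e-05). Set against unstimulated B cells, the DSF groups had log2 values of -0.54 with LPS (adjusted p = 0.0779, and called at -0.89 against replicates 1 and 2 alone) and -0.03 with IL4+anti-CD40 (adjusted p = 0.897). The second of these was called higher against one unstimulated pair (0.37 against replicates 3 and 4) and lower against the other (-0.38 against replicates 1 and 2), so the deposited libraries do not fix its direction.

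Dut and Tyms make the precursor of dTMP and dTMP itself. Dut (chromosome 2, 125247190 to 125258608) stood at 6.70, 6.26, 6.14 and 6.77 FPKM with LPS and at 3.31, 4.07, 4.16 and 4.17 FPKM with LPS and DSF. Under IL4+anti-CD40 it was 8.82, 9.19, 8.07 and 7.80 FPKM, and 5.45, 4.56, 5.16 and 5.07 FPKM with DSF. The groups were apart under both stimuli, with falls of 0.70 (SE 0.0937, edgeR adjusted p = 3.38e-07) and 0.76 (SE 0.0881, adjusted p = 2.09e-05). Against unstimulated B cells (9.53, 7.98, 13.1 and 13.2 FPKM) Dut fell by 0.75 with LPS (SE 0.171, edgeR adjusted p = 0.00447). With IL4+anti-CD40 the difference was -0.35 (SE 0.174, adjusted p = 0.107), -0.61 against replicates 3 and 4 and -0.04 against replicates 1 and 2.

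Tyms (chromosome 5, 30058202 to 30073617) was the lowest of the 10 genes, with 41 to 177 counts per library, and 5.72% of its 50-base stretches occur in other genes, most of all the pseudogene Tyms-ps. It stood at 0.526, 0.536, 0.423 and 0.477 FPKM with LPS and 0.473, 0.375, 0.529 and 0.577 FPKM with LPS and DSF, which overlapped (0.01, SE 0.183, edgeR adjusted p = 0.973). With IL4+anti-CD40 it stood at 1.10, 1.33, 0.847 and 0.821 FPKM, and with DSF at 0.662, 0.447, 0.524 and 0.504 FPKM, a fall of 0.96 (SE 0.182, edgeR adjusted p = 0.000765) with no overlap. The effect of DSF thus differed between the stimuli by -0.96 (SE 0.255, edgeR adjusted p = 0.0144), beside 14.9% of 15130 genes called in that test. That call was lost without replicates 1 and 2 of IL4+anti-CD40 (-0.67, adjusted p = 0.0662) and with all 20 libraries in one fit (-0.89, adjusted p = 0.194). Tyms was lower with LPS than with IL4+anti-CD40 by 1.01 (SE 0.171, adjusted p = 0.000577). Against unstimulated B cells (0.468, 0.537, 1.07 and 1.27 FPKM) neither stimulus passed the test, with log2 values of -0.76 for LPS and 0.31 for IL4+anti-CD40. Against unstimulated replicates 1 and 2 alone the second was 1.03 (edgeR adjusted p = 0.0041), and against replicates 3 and 4 alone the first was -1.22 (7.1e-07). With DSF, Tyms was called lower than in unstimulated replicates 3 and 4 under LPS (-1.27) and IL4+anti-CD40 (-1.13), and against replicates 1 and 2 the values were -0.07 and 0.07.

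The salvage kinases Tk1 and Dck were the members whose 4 unstimulated libraries were alike, and they moved in opposite directions with the stimuli. Tk1 (thymidine kinase, chromosome 11, 117815526 to 117826092) stood at 7.16, 7.02, 6.69 and 8.01 FPKM in unstimulated B cells, 15.99, 15.5, 15.2 and 15.4 FPKM with LPS, and 47.6, 44.3, 49.1 and 44.9 FPKM with IL4+anti-CD40. No 2 of these groups overlapped. Tk1 rose by 1.12 with LPS (SE 0.0729, edgeR adjusted p = 4.35e-06) and by 2.71 with IL4+anti-CD40 (SE 0.0888, adjusted p = 2.4e-07), and was 1.53 lower with LPS than with IL4+anti-CD40 (SE 0.0505, adjusted p = 8.46e-10). With DSF it stood at 15.5, 11.7, 14.8 and 11.7 FPKM under LPS, overlapping LPS alone, and at 25.8, 30.2, 24.3 and 27.96 FPKM under IL4+anti-CD40, below every library without DSF. The falls were 0.19 (SE 0.069, edgeR adjusted p = 0.0153) and 0.80 (SE 0.0704, adjusted p = 3.59e-06), and they differed by -0.60 (SE 0.116, adjusted p = 0.00136). The fall under LPS was not called without DSF replicate 2 or DSF replicate 4 (-0.14 in each case). It was also not called with all 20 libraries in one fit (-0.21, edgeR adjusted p = 0.0502). The same held with limma on log2 FPKM (limma adjusted p between 0.0801 and 0.116). Even with DSF, Tk1 stayed above unstimulated B cells, by 0.90 with LPS (edgeR adjusted p = 9.98e-05) and by 1.92 with IL4+anti-CD40 (6.7e-07). Afmid shares 83 of the 5198 exonic bases of Tk1 on the opposite strand.

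Dck (deoxycytidine kinase, chromosome 5, 88764996 to 88783281) stood at 21.3, 21.0, 21.3 and 20.1 FPKM in unstimulated B cells, 15.4, 15.6, 16.6 and 14.9 FPKM with LPS, and 2.91, 3.02, 2.95 and 3.48 FPKM with IL4+anti-CD40. The 3 groups were apart. Dck fell by 0.41 with LPS (SE 0.0514, edgeR adjusted p = 0.00016) and by 2.74 with IL4+anti-CD40 (SE 0.0791, adjusted p = 1.07e-07), so it was 2.39 higher with LPS than with IL4+anti-CD40 (SE 0.0746, adjusted p = 5.93e-10). DSF raised it under IL4+anti-CD40 to 4.38, 4.17, 5.13 and 4.72 FPKM (0.55, SE 0.0997, edgeR adjusted p = 0.00052). Under LPS it stood at 17.3, 15.5, 16.2 and 17.7 FPKM with DSF, overlapping LPS alone (0.11, SE 0.0524, adjusted p = 0.0628). The difference between the stimuli was 0.45 (SE 0.103, adjusted p = 0.00513). The rise under IL4+anti-CD40 was not repeated in the second experiment, which had no replicates. There the log2 ratio of Dck with DSF was -0.12 under IL4+anti-CD40 (counting interval -0.37 to 0.13). Under LPS that ratio was -0.37 (counting interval -0.57 to -0.18). None of the 3730 distinct 50-base stretches of Dck transcripts was found in annotated transcripts of another gene. Copies outside annotated transcripts were not searched for.

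Samhd1 (chromosome 2, 157097533 to 157135265), which degrades dNTPs, was the most abundant of the 10 genes per length in unstimulated B cells and with LPS. It stood at 43.1, 43.9, 76.7 and 73.9 FPKM in unstimulated B cells and at 135, 135, 128 and 121 FPKM with LPS, above all of them. With IL4+anti-CD40 it stood at 14.7, 15.6, 18.0 and 19.3 FPKM, below all of them. It rose by 1.14 with LPS (SE 0.208, edgeR adjusted p = 0.00138) and fell by 1.80 with IL4+anti-CD40 (SE 0.222, adjusted p = 0.000131), with the same direction against either unstimulated pair (0.82 and 1.61, -2.13 and -1.36). Between the stimuli it was 2.99 higher with LPS (SE 0.0906, adjusted p = 4.76e-10). DSF lowered it under LPS to 107, 98.8, 102 and 103 FPKM, without overlap (-0.32, SE 0.0433, edgeR adjusted p = 3.69e-07), a fall that was not called with all 20 libraries in one fit (-0.34, adjusted p = 0.0646). Under IL4+anti-CD40 and DSF it stood at 16.1, 14.7, 16.1 and 16.8 FPKM (-0.11, SE 0.0873, adjusted p = 0.319). That value rests on the pairs: it was called lower without IL4+anti-CD40 replicates 1 and 2 (-0.25, edgeR adjusted p = 0.00474) and was 0.07 without replicates 3 and 4 (adjusted p = 0.356).

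The log2 ratio of Samhd1 to Rrm1 FPKM sets the enzyme that removes dNTPs against the subunit that all ribonucleotide reductase needs, as transcripts only. It was 3.22 ± 0.115 (SD, n = 4) in unstimulated B cells, 4.71 ± 0.104 with LPS and 1.72 ± 0.311 with IL4+anti-CD40. With DSF it was 5.30 ± 0.142 under LPS and 2.30 ± 0.104 under IL4+anti-CD40. In each of the 4 comparisons the libraries were apart (exact permutation test, two-sided, p = 0.0286, adjusted over 8 tests 0.0381), with differences of 1.49 and -1.502 for the stimuli and of 0.59 and 0.57 for DSF. The 4 IL4+anti-CD40 libraries had 1.48, 1.47, 1.83 and 2.11, and the DSF difference was 0.32 without replicates 1 and 2 and 0.82 without replicates 3 and 4. Rrm1, the denominator, fell with DSF under both stimuli. In the second experiment the ratio was 3.77 unstimulated, 2.54 with LPS, 2.83 with LPS and DSF, 2.25 with IL4+anti-CD40 and 2.76 with IL4+anti-CD40 and DSF, so the LPS value lay on the other side of the unstimulated one than in the first experiment.

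The other genes of the pathway were described from lists chosen by function. Of 22 other deoxynucleotide enzymes, DSF raised 3 and lowered 10 of the 20 tested under LPS, and raised 3 and lowered 9 of 21 under IL4+anti-CD40, with medians of -0.29 and -0.27 beside 0.00 and -0.02 for all genes. These are 13 of 20 and 12 of 21, beside 71.1% and 61.8% of all genes called in either direction. Dtymk, the kinase that turns dTMP into dTDP, fell by 1.07 (SE 0.0637, edgeR adjusted p = 1.27e-13) and by 0.91 (SE 0.0879, adjusted p = 6.46e-06), and Nt5m, a mitochondrial deoxynucleotidase, fell by 0.98 and 0.90. Nme2, a nucleoside diphosphate kinase, rose by 1.28 and 0.58, and Pnp, the purine nucleoside phosphorylase, by 0.94 and 0.44. With total counts as the scaling the split was 2 higher and 15 lower of 20, and 2 and 12 of 21. With the stimuli alone the same list had 5 higher and 5 lower of 21 with LPS, and 7 and 5 with IL4+anti-CD40. Of all genes, 62.9% and 62.5% were called in either direction with these stimuli. Cmpk2, a mitochondrial UMP/CMP kinase that interferon induces, rose by 3.37 with LPS and fell by 2.31 with IL4+anti-CD40, the same directions as Samhd1.

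In the folate cycle that serves Tyms, DSF lowered Mthfd1 by 1.26 under LPS and 1.38 under IL4+anti-CD40 and lowered Shmt1 by 0.51 and 0.86 (edgeR adjusted p between 1.76e-18 and 4.37e-06). With the stimuli alone both had risen, Mthfd1 by 0.81 with LPS and 1.20 with IL4+anti-CD40, and Shmt1 by 1.43 and 2.13 (edgeR adjusted p between 2.26e-05 and 0.000115).

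Ribonucleotide reductase draws its electrons from thioredoxin and glutaredoxin. All 4 genes listed for this step (Txn1, Txnrd1, Glrx, Gsr) rose with DSF under both stimuli of the first experiment, beside 35.1% and 30.1% of all genes called higher, with median log2 fold changes of 1.31 and 1.497. Txnrd1, thioredoxin reductase, rose by 2.57 under LPS (SE 0.0477, edgeR adjusted p = 9.38e-24), and Glrx by 1.61 under IL4+anti-CD40 (SE 0.195, adjusted p = 2.89e-05). The summed level of the 4 genes was 468 to 551 CPM with LPS and 2325 to 2585 CPM with LPS and DSF. It was 514 and 541 CPM in replicates 1 and 2 and 947 and 1080 CPM in replicates 3 and 4 of IL4+anti-CD40, and 2120 to 2254 CPM with DSF. In unstimulated B cells it was 403, 377, 143 and 163 CPM, so the pairs were apart for this list too.

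The 24 S phase and mitosis genes did not move one way with DSF. Under LPS 8 rose and 15 fell, and under IL4+anti-CD40 7 rose and 10 fell, with medians of -0.17 and -0.18 (all genes: 0.00 and -0.02). Of all genes, 35.1% were called higher and 36.0% lower with DSF under LPS, and 30.1% and 31.6% under IL4+anti-CD40. With total counts these were 6 and 15, and 4 and 13. Birc5 (1.47 and 0.85) and Uhrf1 (1.30 and 0.75) rose, and Ccnb1, the mitotic cyclin B1, fell (by 1.04 and 1.06 on the log2 scale). With the stimuli alone, 3 rose and 6 fell with LPS (1 and 12 with total counts) and 9 rose and 2 fell with IL4+anti-CD40 (6 and 8 with total counts). The shares of all genes called in either direction were 62.9% and 62.5%. Ccne1 fell with both, by 1.32 and 2.37. The largest rises among them were 0.48 for Pcna with LPS and 0.85 for Mcm2 with IL4+anti-CD40, which are smaller than the rise of Tk1.

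Among 12 p53 target genes listed beside Rrm2b, 7 rose and 4 fell of 11 tested with DSF under LPS, and 7 rose and 5 fell of 12 under IL4+anti-CD40, with medians of 1.01 and 0.29, beside 71.1% and 61.8% of all genes called in either direction. Plk2 rose by 2.62 and 2.48, and Cdkn1a, the cell cycle inhibitor p21, by 2.37 under LPS (SE 0.0518, edgeR adjusted p = 2.05e-22). Phlda3 fell by 2.20 under IL4+anti-CD40, at low levels (1.86 CPM without and 0.40 CPM with DSF), and Ccng1 fell by 0.64 under LPS. The Rrm2b values were 0.13 and 0.24, and a link between Rrm2b and these genes was not tested.

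The 14 interferon-stimulated genes listed beside Samhd1 all rose with LPS, with a median of 4.67 (all genes: -0.05), led by Ifit1 (6.87) and Rsad2 (6.03). Of all genes, 29.6% were called higher with LPS. With IL4+anti-CD40, 1 of the 14 passed the edgeR test, in the lower direction, beside 62.5% of all genes called in either direction. Their summed level was 236, 254, 505 and 504 CPM in unstimulated replicates 1 to 4, which is the same split as for Samhd1, and 6573 to 7372 CPM with LPS. With DSF under LPS, 3 rose and 9 fell, with a median of -0.27, beside 35.1% of all genes called higher and 36.0% lower. With DSF under IL4+anti-CD40, 1 of 13 was called, beside 61.8% of all genes in either direction.

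By the smallest root mean square difference of log2 CPM over the 20 libraries, each gene centred on its own mean, the genes closest to Samhd1 were Uba7 (0.222) and Sp100 (0.229), among 9825 genes compared. Samhd1 itself varied with an SD of 1.34 over these libraries. Closest to Dctd was Akap1 (0.195), and closest to Dctpp1 was Slc25a1 (0.196). Closest to Rrm1 were Armc10 (0.082) and Trmt112 (0.105), and to Rrm2 Pclaf (0.151), a partner of PCNA in DNA replication, and Tnfaip8 (0.196). Zfp217 (0.285) was among the closest to Tyms. The closest to Rrm2b were Cd81 (0.110) and Rufy1 (0.115), to Dut Eif1b (0.132) and Dnmt1 (0.139), to Tk1 Tagap (0.231) and Atf5 (0.262), and to Dck Scarb2 (0.269) and Icosl (0.289). Over the 7 libraries of the second experiment, Akap1 was the 2nd closest of 9802 genes to Dctd and Slc25a1 the 73rd closest to Dctpp1, while Cd81 ranked 5948th for Rrm2b. The libraries share their groups, so likeness here mostly reads the group means.

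In the second experiment, with 1 library per condition, DSF again gave the lowest Dctd and Dctpp1. Dctd had 213 counts with LPS and 8 with LPS and DSF (3.38 and 0.136 FPKM), a log2 ratio of -4.36 with a 95% interval for counting error alone of -5.86 to -3.63. With IL4+anti-CD40 it had 271 counts and with DSF 16, a log2 ratio of -3.59 (-4.53 to -2.98). Dctpp1 had 513 and 74 counts under LPS (-2.66, -3.06 to -2.34) and 618 and 57 under IL4+anti-CD40 (-3.03, -3.48 to -2.67). Rrm1 and Dut were also over 2-fold lower, at -1.14 and -1.18 under LPS and at -1.15 and -1.35 under IL4+anti-CD40. These 4 genes were past 2-fold lower and 0 were past 2-fold higher under each stimulus, beside 39.8% and 42.2% of 14275 genes past 2-fold in either direction (20.3% and 21.9% higher, 19.5% and 20.3% lower). Rrm2b had ratios of 0.66 and 0.71, and its share of the small-subunit FPKM was 36.5% with LPS and 56.2% with LPS and DSF, and 40.6% and 64.9% with IL4+anti-CD40. The electron-donor genes had medians of only 0.18 and 0.15 in this experiment, with 1 of the 4 genes past 2-fold higher under each stimulus. Samhd1 had ratios of -0.85 and -0.64 with DSF, and the interferon-stimulated genes medians of -2.09 and -2.26, with 12 of 14 past 2-fold lower under each stimulus.

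Ibrutinib moved none of the 10 genes past 2-fold under either stimulus, beside 5.28% of all genes under LPS (2.81% higher, 2.47% lower) and 3.92% under IL4+anti-CD40 (2.23% and 1.69%). The log2 ratios ran from -0.70 (Dctd) to 0.45 (Dck) under LPS and from -0.66 (Dctd) to 0.36 (Samhd1) under IL4+anti-CD40. Dctd had 171 counts with LPS and ibrutinib and 241 with IL4+anti-CD40 and ibrutinib, against 8 and 16 with DSF. Dctpp1 had ratios of -0.44 and -0.42, and Rrm1 of 0.02 and 0.00. With 1 library each, the difference between the drugs has no replicate check.

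Against the unstimulated library of the second experiment, 2 genes were past 2-fold higher with LPS (Dctd at 1.61, Dctpp1 at 1.16) and 2 past 2-fold lower (Dck at -1.62, Samhd1 at -1.09), beside 18.5% of all genes in either direction (8.62% higher, 9.88% lower). With IL4+anti-CD40, 4 were past 2-fold higher (Tk1 at 2.36, Dctd at 1.94, Tyms at 1.56, Dctpp1 at 1.42) and 2 lower (Dck at -2.32, Samhd1 at -1.22), beside 24.4% (10.7% higher, 13.7% lower). Samhd1 with LPS therefore went up in the first experiment and down in the second, from 65.6 FPKM unstimulated to 30.7 FPKM. Of the interferon-stimulated genes, 3 of 14 had a log2 ratio above 0 with LPS in the second experiment, with a median of -0.33, and 1 was past 2-fold higher and 0 past 2-fold lower. Dck, too, was lower with LPS by more in the second experiment, at 7.54 FPKM against 23.3 unstimulated. The rises of Dctd and Dctpp1 were of similar size in both experiments.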

How the data were processed

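Poly-A RNA of splenic B cells was sequenced by the study, with reads aligned to mm10 by HISAT2 2.0.5 and counted per gene by featureCounts 1.5.0-p3. The annotation release and the strand setting are not given in the sources used here. The deposited counts are whole reads per gene, not normalised, and the FPKM values deposited by the authors are scaled for gene length and library.

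Counts were tested with edgeR 4.0.16 in R 4.3.3 (TMM, filterByExpr, quasi-likelihood test, Benjamini-Hochberg adjustment over all genes tested, threshold 0.05). Pairwise fits used the 8 libraries compared, and the difference of DSF effects 16. All 10 genes were named, and of each list genes among the 2 with the largest log2 fold change past the threshold in each direction and comparison, with their values under the other stimulus. Genes most like each of the 10 were the 2 with the smallest root mean square difference. Some genes that these rules name are not reported here. Ratios of FPKM were tested by exact permutation (scipy 1.17.1). In the second experiment, log2 ratios used a prior count of 2, and intervals are 95% exact binomial intervals for counting error. Genes were matched to RefSeq promoter windows by symbol. The genes and lists were chosen with earlier results of these data known.

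The alternatives were DESeq2 1.42.0, other scalings and filters, limma 3.58.1 on log2 FPKM with 0.1 or 1 added, all 20 libraries in 1 fit, a replicate block, and leaving out each library. Leaving out pairs of libraries was chosen after seeing the data. On counts simulated for DSF with LPS (13533 genes), edgeR found 71 of 80 genes changed by 1 on the log2 scale and 107 of 107 changed by 2. It also called 19 genes that had not been changed.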

Additional observations from a re-analysis of the deposited data

Results flagged for a closer look

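In 4 of 60 sets of 4 libraries (the FPKM of each gene and the pair of ratios in each group), the highest or lowest value stood apart from the other 3 by Dixon's test, where chance gives about 3. All 4 were FPKM values: Rrm2 in LPS replicate 2 (2.34 FPKM), Rrm2 in IL4+anti-CD40 replicate 1 (4.12 FPKM), Rrm2b in IL4+anti-CD40 with DSF replicate 1 (3.54 FPKM) and Dut in LPS with DSF replicate 1 (3.31 FPKM). Without IL4+anti-CD40 replicate 1 the fall of Rrm2 with DSF was -0.25 (edgeR adjusted p = 0.0584), and without IL4+anti-CD40 with DSF replicate 1 the rise of Rrm2b was 0.18 (adjusted p = 0.0701).

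The effect of DSF differed between the stimuli (IL4+anti-CD40 minus LPS) for 3 genes by the edgeR test of the difference: Dck by 0.45, Tk1 by -0.60 and Tyms by -0.96 on the log2 scale.

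Between the experiments, Rrm2 with LPS over unstimulated B cells had a log2 ratio of 0.37 in the second experiment (95% counting interval 0.08 to 0.67) and a fold change of -1.27 in the first. Samhd1 had -1.09 in the second (-1.14 to -1.05) and 1.14 in the first. Other changes called in the first experiment also had the opposite sign in the second. Tk1 with DSF under LPS had 0.29 (0.18 to 0.39), against -0.19 in the first. Dut with LPS had 0.11 (-0.09 to 0.31), against -0.75 in the first. The fall of Rrm2 with IL4+anti-CD40 (0.30 in the second) and the rise of Dck with DSF under IL4+anti-CD40 (-0.12) were not repeated either. The second experiment has 1 library per condition, so none of these differences was tested.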

How the results depend on the processing

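Over the 10 genes, 8 comparisons and all alternatives, 1583 of 1680 values kept their side of the threshold, 55 passed it newly and 41 no longer passed it. The last 1 passed it with its sign reversed (Dctpp1 with IL4+anti-CD40 and DSF against unstimulated B cells, 0.37 without unstimulated replicates 1 and 2). Values that passed in neither fit count as kept even where their sign changed, such as Rrm2b with DSF under LPS (0.13, and -0.07 with total counts). All 80 DESeq2 values kept their side of the threshold. Total counts in place of TMM put the median log2 fold change of all genes at -0.27 with LPS, -0.19 with IL4+anti-CD40, and -0.21 and -0.16 with DSF. Without IL4+anti-CD40 replicates 3 and 4, 8 genes in place of 5 were called between the stimuli. The Rrm2b share differed from that of unstimulated B cells by 9.11 points with LPS and 3.34 with IL4+anti-CD40 without unstimulated replicates 1 and 2, and by -4.70 and -10.5 without replicates 3 and 4. Without IL4+anti-CD40 replicates 1 and 2, the log2 ratio of Samhd1 to Rrm1 differed by -1.25 with IL4+anti-CD40 and by 0.32 with DSF under it, and without replicates 3 and 4 by -1.75 and 0.82. The cause was not tested. Leaving out 1 library gave 8 to 10 genes called with LPS, 6 to 8 with IL4+anti-CD40, 5 to 6 with DSF under LPS, 7 to 9 with DSF under IL4+anti-CD40 and 3 to 4 for the difference. It gave shifts of the Rrm2b share of 3.43 to 5.56 points with DSF under LPS and 7.73 to 10.7 under IL4+anti-CD40. With all 20 libraries in one fit, the genes called for the difference of DSF effects were 710 higher and 205 lower, in place of 1053 and 1199. Of the 20 genes most like the 10, 7 were within the closest 1% of genes in the second experiment. Replicate numbers share no stated source, and deviations of same-numbered libraries correlated by -0.056 to 0.169 over 15575 genes. With the replicate number as a block, 8, 6, 6 and 9 genes were called for LPS, IL4+anti-CD40, and DSF under each, against 8, 7, 6 and 9 without it. Tyms, with 41 to 177 counts per library, is the gene that depth limits most.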
